A study of Drosophila melanogaster with 54 samples.

Results

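Slit and the Robo receptors were measured in cells sorted from Drosophila melanogaster embryos. The family was taken as 4 genes, sli, robo1, robo2 and robo3, and every probe set annotated to 1 of them alone was used. There were 2 such probe sets, 1 for sli and 1 for robo1, among the 13966 probe sets tested, which cover 10844 genes with a probe set of their own. No probe set used here is annotated to robo2 or robo3 alone, and both are not analysed here. Neither sli nor robo1 passed the test in the sort comparison or in any of the 12 genotypes. The values below are therefore levels with their spread, and intervals that bound how far each gene could have moved.

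Slit is a large secreted protein, and Robo proteins are its transmembrane receptors. In the fly embryo the midline glia secrete Slit, and growing axons that carry Robo turn away from it. Muscle precursors also carry Robo receptors: Slit first drives them away from the midline and later, made by tendon cells, draws muscle ends to their attachment sites. Slit and Robo also act between heart cells as the heart lumen forms. Robo2 and Robo3 are further receptors that set the lateral position of axons.

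The study profiled RNA from fluorescence-sorted cells on 54 arrays, in 18 groups of 3, which the labels number in 3 sets. All embryos, wild type ones included, carried Twi-GAL4 and UAS-GFP, so that GFP marks cells in which the Twist driver is active, chiefly mesoderm. In set 1 the genotypes were activated EGFR (UAS-lambda-Top), activated FGFR (UAS-lambda-Htl with UAS-Dof) and a spi mutant. In set 2 they were activated Armadillo (UAS-Arm s10), activated Armadillo plus Ras (UAS-Ras1 Act with UAS-Arm s10), activated Pointed (UAS-Pnt P2VP16), activated Ras (UAS-Ras1 Act), activated Thickveins (UAS-Tkv QD) and a wg mutant. In set 3 they were a Dl mutant, an lmd mutant and activated Notch (UAS-Notch intra). Only GFP positive cells were taken from these 12 genotypes. Each set also held wild type cells, 3 arrays of GFP positive and 3 of GFP negative ones. Embryos were kept at 25 °C and collected at 5.5 to 7.5 h after laying, except the 3 genotypes of set 3, collected at 6 to 8 h. Age and genotype thus cannot be told apart where set 3 genotypes are compared with their wild type, but the 3 genotypes match each other in age. The UAS transgenes act in the cells that the Twist driver covers, whereas the mutations are present in the whole embryo. The alleles of the 4 mutants and the way mutant embryos were picked are not given in the sources used here. The labels do not state that the 3 arrays of a group came from separate collections, so the p-values measure the spread between these arrays, which may be technical.

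Replicate arrays correlated at r = 0.872 to 0.943, and the median value of an array was 4.58 to 4.62 in set 1, 4.17 to 4.28 in set 2 and 3.65 to 3.72 in set 3, so levels were compared within a set only. The sort was checked on marker genes. All 6 measured mesoderm markers, such as twi, Him and lmd, were higher in GFP positive cells (median log2 difference 2.62, against 0.003 over all probe sets), and all 5 measured ectoderm markers, such as en and grh, were lower (median -1.59). Of the genes targeted by the genotypes, 5 had a probe set. Egfr rose by 3.41 with activated EGFR (adjusted p = 6.17e-09), htl rose by 1.87 with activated FGFR (adjusted p = 0.00521), and tkv rose by 4.04 with activated Thickveins (adjusted p = 1.03e-11). Second probe sets gave 0.70 for Egfr (adjusted p = 0.0074) and 1.61 for tkv (adjusted p = 0.167). The htl message also rose with activated EGFR (1.56), activated Ras (1.64), Armadillo plus Ras (1.95) and in the Dl mutant (1.47), all called. It fell with activated Notch (-1.33, adjusted p = 0.0222). The htl rise is thus no check particular to the activated FGFR label. The messages of spi and lmd in their own mutants differed from wild type by 0.001 and 0.44 (adjusted p = 0.995 and 0.149), so those mutant labels cannot be checked by transcript level.

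Within groups, both genes varied more between arrays than the median probe set did. The deposited log2 value of sli lay between 0.39 and 5.49 over the 54 arrays, and its rank within an array lay between percentiles 4.78 and 65.1 of all probe sets. The value of robo1 lay between 3.89 and 7.17, with ranks between percentiles 43.5 and 90.4. A rank describes the brightness of a probe set and not the number of transcripts, so the genes are not set against each other. The SD of sli within groups was 0.69 in set 1, 1.26 in set 2 and 0.88 in set 3, where the median over all probe sets was 0.42, 0.58 and 0.57. In set 2, 97.6% of probe sets had a lower SD than sli. The SD of robo1 was 0.91, 0.75 and 0.59 in sets 1, 2 and 3, above the median in every set and nearest to it in set 3. No detection calls were used here.

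The sort comparison asks whether a gene is expressed more in the mesoderm or outside it. For sli the sorted fractions did not differ beyond the spread between arrays over the 3 sets. In set 1, sli was at 4.95, 5.13 and 5.38 in wild type GFP positive cells, against 5.35, 4.75 and 5.49 in GFP negative cells. In set 2 it was at 3.22, 3.92 and 4.50 in GFP positive cells, against 3.99, 2.94 and 2.80 in GFP negative cells. In both sets the fractions overlapped. In set 3 sli was at 2.46, 3.73 and 2.51 in GFP positive cells, against 3.92, 4.40 and 4.19 in GFP negative cells, with all GFP positive arrays under all GFP negative ones.

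Over the 3 sets together, sli differed by -0.23 ± 0.30 on the log2 scale (GFP positive minus GFP negative, limma with set as a block, ± SE, 9 arrays each), with a 95% interval of -0.85 to 0.39 and adjusted p = 0.709. In that comparison 16.7% of all probe sets were called at an adjusted p under 0.05. Fitted alone, set 1 gave -0.04 ± 0.26 (adjusted p = 0.952), set 2 gave 0.64 ± 0.50 (adjusted p = 0.511) and set 3 gave -1.27 ± 0.41 (interval -2.24 to -0.31, adjusted p = 0.178). The shares of probe sets called in those single sets were 11.5%, 13.1% and 4.14%. In set 3, GFP positive cells lay wholly below GFP negative cells for 11% of all probe sets. Whether the difference varied between sets was tested directly: the F test gave an adjusted p of 0.126 for sli, where 7.94% of probe sets passed. Set 3 was thus the only set whose fractions did not overlap for sli, and its difference passed no test.

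Tendon cells are a known source of Slit, so their markers were read beside sli. Of the 5 tendon cell genes listed, 4 were measured (sr, Tsp, Lrt and slow), and their mean level per array was 2.74 to 3.76 in GFP positive cells of set 3, against 4.52 to 4.71 in GFP negative cells, ranges that did not overlap and were not tested in that set alone. In set 1 those ranges were 4.31 to 4.49 in GFP positive cells, against 4.44 to 5.45 in GFP negative cells, and in set 2 they were 3.46 to 4.09 in GFP positive cells, against 3.49 to 4.602 in GFP negative cells. None of the 4 was called over the 3 sets, and their median log2 difference was -0.85, with sr, the transcription factor that specifies tendon cells, at -1.07 ± 0.45 (adjusted p = 0.128). The part of these cells in the sli result was not tested. Of the 5 ventral midline genes listed, 2 were measured: wrapper, a surface protein of midline glia, was higher in GFP positive cells (1.15 ± 0.25, adjusted p = 0.00252, but 0.0652 without the arrays lettered A), and otp was at -0.73 (adjusted p = 0.12). In sorted bulk cells, fewer cells of a type and less RNA per cell cannot be told apart.

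**Figure D1:**
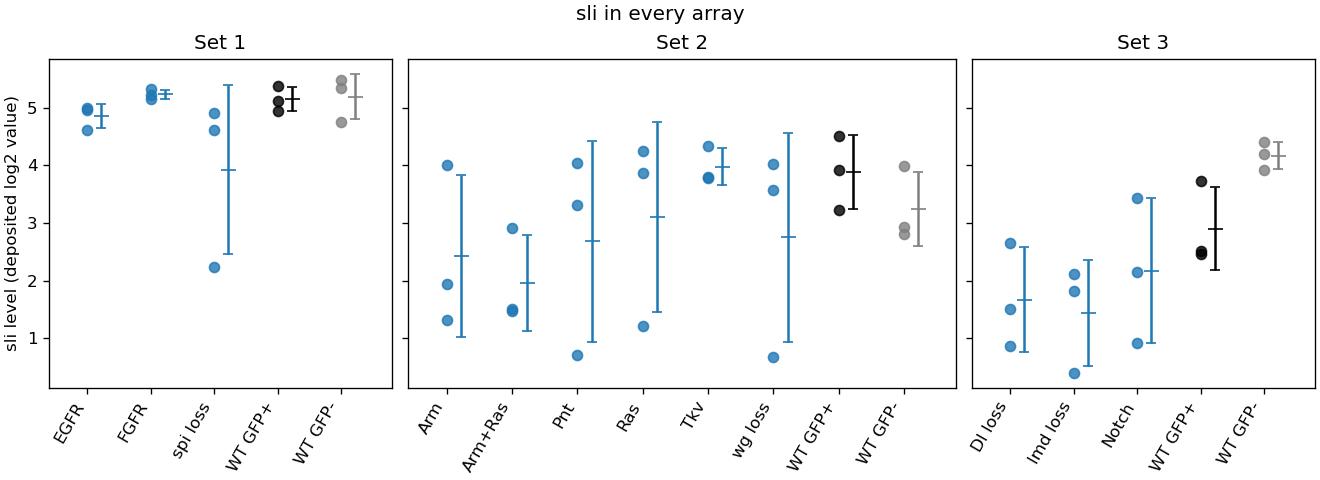
Deposited log2 value of sli (vertical axis) in every array, by group and set (horizontal axis). Each point is 1 array, and the dash and bar beside the points give the mean and SD of the 3 arrays. Blue marks the genotypes, black wild type GFP positive cells and grey wild type GFP negative cells. The single low arrays at 2.24 (spi mutant) and at 0.67 to 1.21 (wg mutant, activated Pointed and activated Ras) stand apart from the other 2 arrays of their groups.

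In set 1 the sli means of both activated receptors lay within 0.29 of wild type, and the spi mutant, which lacks a main EGFR ligand, was the lowest group. Activated EGFR cells had 4.622, 4.999 and 4.972, and activated FGFR cells had 5.16, 5.32 and 5.22. The spi mutant cells had 4.92, 2.24 and 4.61, against 4.95, 5.13 and 5.38 in wild type GFP positive cells. The first spi mutant array lay just below the lowest wild type array, and the second far below it. The differences from wild type were -0.29 ± 0.51 for activated EGFR (interval -1.39 to 0.81, adjusted p = 0.905) and 0.08 ± 0.51 for activated FGFR (interval -1.02 to 1.18, adjusted p = 0.969). The spi mutant differed by -1.23 ± 0.51 (interval -2.33 to -0.13, adjusted p = 0.233), and without its array 1B by -0.39 (adjusted p = 0.54). In these 3 comparisons 2.74%, 2.21% and 3.19% of all probe sets were called. Groups without overlap and with the spi mutant lower made up 10.9% of probe sets. The mean level of the 4 tendon cell genes was 3.55 to 4.12 in spi mutant cells, against 4.31 to 4.49 in wild type GFP positive cells. None of the 4 was called there: sr differed by -1.29 (adjusted p = 0.363), slow by -0.66 (0.601), Lrt by -0.41 (0.132) and Tsp by 0.02 (0.995). Activated FGFR cells, highest in sli mean, had tendon cell gene means of 3.66 to 4.38, and activated EGFR cells 4.28 to 4.54. The 2 measured midline genes had means of 4.48 to 4.93 in spi mutant cells, against 3.28 to 3.80 in wild type GFP positive cells. Those means were 4.26 to 4.97 with activated EGFR and 4.30 to 4.72 with activated FGFR. Neither midline gene was called in the spi mutant (wrapper 0.72, adjusted p = 0.34, otp 1.34, adjusted p = 0.103). The part of tendon or midline cells in the sli values was not tested.

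In set 2 the sli values of most genotypes were split between arrays, so that 1 or 2 arrays decided the mean. Activated Armadillo cells had 1.31, 1.95 and 4.01, and activated Armadillo plus Ras cells had 2.919, 1.466 and 1.496, against 3.22, 3.92 and 4.50 in wild type GFP positive cells. Only the Armadillo plus Ras group lay wholly below wild type, and its difference was -1.92 ± 0.96 (interval -3.92 to 0.08, adjusted p = 0.492), the most negative of the 12 genotypes. Groups without overlap and with that genotype lower made up 10% of probe sets, and 2.42% were called. Activated Armadillo alone differed by -1.46 ± 0.96 (adjusted p = 0.487, with 6.92% of probe sets called).

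Activated Pointed cells had sli values of 4.04, 3.31 and 0.71, activated Ras cells 3.86, 4.25 and 1.21, and wg mutant cells 3.57, 4.02 and 0.67. In each of these groups the C array alone was low, and the A and B arrays lay in or near the wild type range of 3.22 to 4.50. Their differences from wild type were -1.19 (adjusted p = 0.592), -0.78 (adjusted p = 0.842) and -1.13 (adjusted p = 0.448), each ± 0.96. Without the C array of the genotype, sli differed by -0.21 in activated Pointed cells, by 0.17 in activated Ras cells and by -0.08 in wg mutant cells. The 3′ probe set of the eIF-4a control exceeded the 5′ one by 3.29 to 3.59 in wg mutant cells, against 2.01 to 2.24 in wild type GFP positive cells, a gap that grows as 5′ ends are lost. With that gap as a covariate the wg mutant differed by -2.84 (adjusted p = 0.76). On all other arrays of the set the gap was 1.81 to 2.37, so the covariate and the wg mutant could hardly be told apart. In activated Thickveins cells, where Dpp receptor signalling is switched on, sli was at 4.35, 3.80 and 3.79 and differed by 0.10 (interval -1.90 to 2.10, adjusted p = 0.984). The shares of probe sets called were 8.85% for activated Pointed, 4.59% for activated Ras, 26.6% for the wg mutant and 8.38% for activated Thickveins.

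In set 3 all 3 genotypes had lower sli means than wild type, and none passed the test. Dl mutant cells had 2.647, 1.5 and 0.855, lmd mutant cells 2.11, 1.83 and 0.39 and activated Notch cells 3.44, 0.92 and 2.15, against 2.46, 3.73 and 2.51 in wild type GFP positive cells. The lmd mutant, which lacks a factor for fusion-competent myoblasts, lay wholly below wild type, and the other two groups overlapped with it. The differences were -1.46 ± 0.69 for the lmd mutant (interval -2.94 to 0.03, adjusted p = 0.48), -1.23 for the Dl mutant (adjusted p = 0.539) and -0.73 for activated Notch (adjusted p = 0.847). All 3 values moved with single arrays: from -1.79 to -0.93 for the lmd mutant, from -1.72 to -0.82 for the Dl mutant and from -1.37 to -0.11 for activated Notch. The lmd mutant was at -0.93 without its array 3C, the Dl mutant at -0.82 without wild type 3B and at -0.83 without its array 3C, and activated Notch at -0.11 without its array 3B, at -0.32 without wild type 3B and at -1.37 without its array 3A. The eIF-4a control gave 2.83 to 3.74 on Dl mutant, 2.80 to 3.87 on lmd mutant and 2.90 to 3.43 on activated Notch arrays, against 2.37 to 2.79 on wild type GFP positive arrays, with no overlap. With it as a covariate sli differed by -0.60 in the lmd mutant (adjusted p = 0.821), by -0.41 in the Dl mutant (adjusted p = 0.889) and by -0.11 with activated Notch (adjusted p = 0.969). As the control did not overlap with wild type, this fit cannot fully tell the covariate from the genotypes. Without the arrays lettered A the values were -2.01, -1.94 and -1.59 in the same order. Probe sets called made up 1.03%, 2.37% and 1.48%, and probe sets with the lmd mutant wholly lower made up 7.55%. Among the age-matched genotypes the differences were smaller: 0.50 for activated Notch minus the Dl mutant (adjusted p = 0.835), -0.23 for the lmd mutant minus the Dl mutant (adjusted p = 0.954) and -0.72 for the lmd mutant minus activated Notch (adjusted p = 0.724, and -0.09 with 0.977 without Notch 3A). In those comparisons 5.36%, 1.7% and 3.61% of all probe sets were called.

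Ordered by mean, the sli levels in set 1 ran from activated FGFR (5.23 ± 0.09, SD, n = 3) through wild type GFP negative, wild type GFP positive and activated EGFR to the spi mutant (3.92 ± 1.47). In set 2 they ran from activated Thickveins (3.98 ± 0.32) through wild type GFP positive, wild type GFP negative, activated Ras, the wg mutant, activated Pointed and activated Armadillo to Armadillo plus Ras (1.96 ± 0.83). In set 3 the order was wild type GFP negative (4.17 ± 0.24), wild type GFP positive (2.90 ± 0.72), activated Notch (2.17 ± 1.26), the Dl mutant (1.67 ± 0.91) and the lmd mutant (1.44 ± 0.92). Neighbours in that order overlapped in 4 of 4 steps in set 1, 7 of 7 in set 2 and 3 of 4 in set 3. The step without overlap was the one between the sorted wild type fractions of set 3.

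The receptor was examined in the same way. In the sort comparison robo1 did not separate the fractions in sets 1 and 3, and it was lower in the GFP positive arrays of set 2. Set 1 had robo1 at 6.71, 6.93 and 5.10 in wild type GFP positive cells, against 6.64, 4.16 and 6.68 in GFP negative cells. Set 2 had 3.89, 4.35 and 4.37 in GFP positive cells, against 4.98, 5.55 and 5.12 in GFP negative cells. Set 3 had 5.88, 6.52 and 6.16 in GFP positive cells, against 6.03, 6.21 and 6.33 in GFP negative cells. Only the set 2 fractions did not overlap.

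Over the 3 sets robo1 differed by -0.20 ± 0.33 (interval -0.89 to 0.49, adjusted p = 0.774), and without the GFP negative array 1B by -0.48 (adjusted p = 0.188). Set 2 alone gave -1.02 ± 0.27 (interval -1.65 to -0.39, adjusted p = 0.0506), just outside the threshold. In that set 14.1% of all probe sets had GFP positive cells wholly lower. Set 1 alone gave 0.42 ± 0.76 (adjusted p = 0.818) and set 3 alone 0.00 ± 0.18 with an interval of -0.42 to 0.42 (adjusted p = 0.997), the narrowest interval of either gene. The F test for a difference between sets gave an adjusted p of 0.491. Neural cells, where robo1 is known to be expressed, are one part of the GFP negative fraction. Of 6 neural and glial markers, 5 were lower in GFP positive cells over the 3 sets, among them elav, a protein of neurons, at -0.76 ± 0.10 (adjusted p = 1.91e-05) and repo, a factor of glia, at -0.90 ± 0.13 (adjusted p = 6.63e-05). The mean level of the 6 markers was 5.60 to 6.20 in GFP positive cells of set 2, against 6.55 to 6.62 in GFP negative cells. It was also lower without overlap in set 1 (6.99 to 7.05 in GFP positive cells, against 7.67 to 7.79 in GFP negative cells) and in set 3 (5.91 to 6.17 in GFP positive cells, against 6.42 to 6.88 in GFP negative cells), where robo1 overlapped. The part of neural cells in the robo1 value was not tested.

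**Figure D2:**
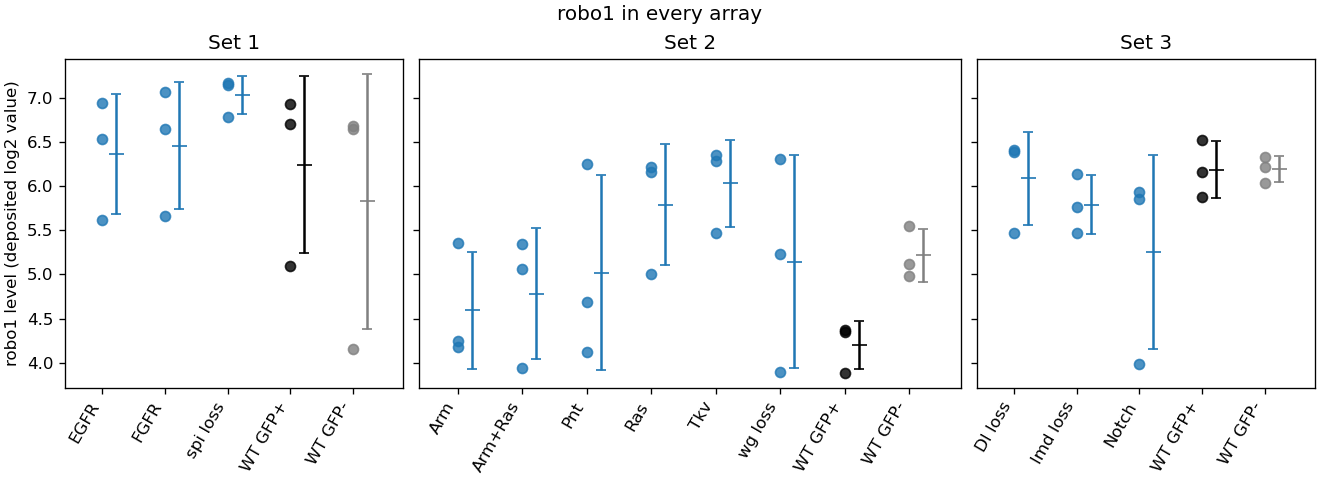
Deposited log2 value of robo1 (vertical axis) in every array, by group and set (horizontal axis), with the mean and SD of each group beside its 3 points. Colours mark genotypes (blue), wild type GFP positive cells (black) and wild type GFP negative cells (grey). In set 2 the wild type GFP positive arrays, at 3.89 to 4.37, have the lowest mean of the 8 groups.

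Among the set 1 genotypes, robo1 was at 6.94, 6.54 and 5.62 in activated EGFR cells and at 5.66, 6.65 and 7.06 in activated FGFR cells. The spi mutant cells had 7.14, 6.78 and 7.17, against 6.71, 6.93 and 5.10 in wild type GFP positive cells. All 3 groups overlapped with wild type, whose array 1C was low. The differences were 0.12 ± 0.64 for activated EGFR (adjusted p = 0.971), 0.21 for activated FGFR (adjusted p = 0.935) and 0.79 for the spi mutant (interval -0.59 to 2.16, adjusted p = 0.584). Without wild type array 1C the spi mutant differed by 0.21 (adjusted p = 0.932).

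The clearest robo1 values came from set 2, where activated Thickveins and activated Ras were the highest groups. Activated Thickveins cells had 6.29, 5.47 and 6.35 and activated Ras cells 6.212, 6.157 and 5.002, against 3.89, 4.35 and 4.37 in wild type GFP positive cells. Every array of both genotypes lay above every wild type array. The differences were 1.83 ± 0.57 for activated Thickveins (3.56-fold, interval 1.56 to 8.12, adjusted p = 0.0508) and 1.59 ± 0.57 for activated Ras (3.01-fold, interval 1.32 to 6.86, adjusted p = 0.138). Neither passed the threshold of 0.05. Probe sets in which the genotype was wholly higher made up 14.6% for activated Thickveins and 11.8% for activated Ras.

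The activated Thickveins result sat at the edge of the threshold and depended on the fit. With only the 2 groups compared in the fit the adjusted p was 0.0139, and over the brighter probe sets alone it was 0.0254. Over all 7 alternative settings the difference ran from 1.55 to 1.83, with adjusted p from 0.0139 to 0.38. Leaving out 1 array at a time gave differences of 1.68 to 2.12 with adjusted p from 0.051 to 0.175. The eIF-4a gap was 1.81 on all activated Thickveins arrays, against 2.01 to 2.24 on wild type GFP positive arrays. With that gap as a covariate robo1 differed by 1.58 (adjusted p = 0.331). In activated Ras cells the gap was 2.24 to 2.28.

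The other 4 genotypes of set 2 had robo1 means above wild type as well, with overlapping arrays. Activated Armadillo cells had 4.18, 4.25 and 5.36 and Armadillo plus Ras cells 3.94, 5.06 and 5.34. Activated Pointed cells had 4.69, 6.25 and 4.12 and wg mutant cells 5.23, 3.89 and 6.30. The differences were 0.40 (adjusted p = 0.823), 0.58 (adjusted p = 0.901), 0.82 (adjusted p = 0.507) and 0.94 (adjusted p = 0.257), each ± 0.57. Single arrays carried much of these: robo1 differed by 0.01 with activated Armadillo without its array 2C, by 0.30 with Armadillo plus Ras without its array 2C, by 0.20 with activated Pointed without its array 2B and by 0.36 in the wg mutant without its array 2C (1.57, adjusted p = 0.0502, without its array 2B). The eIF-4a control gave 3.29 to 3.59 on wg mutant arrays, and with it as a covariate the wg mutant differed by 1.93 (adjusted p = 0.705). As for sli, that covariate and the wg mutant could hardly be told apart. All 6 comparisons of this set share the same 3 wild type GFP positive arrays, so the common direction is not 6 independent observations. Armadillo plus Ras, with 4.78 ± 0.74, lay between activated Armadillo (4.597 ± 0.664) and activated Ras (5.79 ± 0.68, SD, n = 3 each), and those differences were not tested.

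For set 3 robo1 was at 5.47, 6.38 and 6.41 in Dl mutant cells, at 5.47, 5.77 and 6.14 in lmd mutant cells and at 3.99, 5.93 and 5.85 in activated Notch cells. Wild type GFP positive cells had 5.88, 6.52 and 6.16. All groups overlapped, and the activated Notch group held 1 array far below the rest. The differences were -0.10 ± 0.42 for the Dl mutant (adjusted p = 0.974), -0.40 for the lmd mutant (adjusted p = 0.824) and -0.93 for activated Notch (interval -1.82 to -0.04, adjusted p = 0.477). Without Notch array 3A the last was -0.30 (adjusted p = 0.838). With the eIF-4a difference as a covariate, activated Notch differed by -1.54 (adjusted p = 0.0267), the Dl mutant by -0.90 (adjusted p = 0.263) and the lmd mutant by -1.23 (adjusted p = 0.118). That control gave 2.90 to 3.43 on activated Notch arrays, against 2.37 to 2.79 on wild type GFP positive arrays. These ranges did not overlap, so the fit cannot fully tell the covariate from the genotype. It was not repeated without Notch array 3A. Among the age-matched genotypes robo1 differed by -0.83 for activated Notch minus the Dl mutant (adjusted p = 0.367, and -0.20 with 0.844 without Notch 3A), by -0.30 for the lmd mutant minus the Dl mutant (adjusted p = 0.858) and by 0.53 for the lmd mutant minus activated Notch (adjusted p = 0.64, and -0.10 with 0.93 without Notch 3A).

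In order of mean, robo1 in set 1 ran from the spi mutant (7.03 ± 0.22, SD, n = 3) through activated FGFR, activated EGFR and wild type GFP positive to wild type GFP negative (5.83 ± 1.44). In set 2 it ran from activated Thickveins (6.03 ± 0.49) through activated Ras, wild type GFP negative, the wg mutant, activated Pointed, Armadillo plus Ras and activated Armadillo to wild type GFP positive (4.20 ± 0.27). In set 3 it ran from both wild type fractions (6.19 each) through the Dl mutant and the lmd mutant to activated Notch (5.26 ± 1.10). Every neighbouring pair overlapped, in 4 of 4, 7 of 7 and 4 of 4 steps.

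Ligand and receptor were counted over the 12 genotypes. Neither gene was called by limma in any genotype, where 5.89% of probe sets were called over the 12 comparisons pooled. The unadjusted p was under 0.05 for sli in 1 genotype (the spi mutant) and for robo1 in 3 (activated Ras, activated Thickveins and activated Notch), where the share over all probe sets was 15.9%. Groups did not overlap in 3 genotypes for sli and in 2 for robo1, where the share was 22.6%. For sli 2 means were higher and 10 lower than wild type, and for robo1 9 were higher and 3 lower. Comparisons within a set share their wild type arrays, so these counts are not independent. Over the 54 arrays, each set centred on its mean, the levels of sli and robo1 correlated at r = 0.03, and over the 18 group means at r = 0.14, arrays and groups that share sets and normalization.

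**Figure D3:**
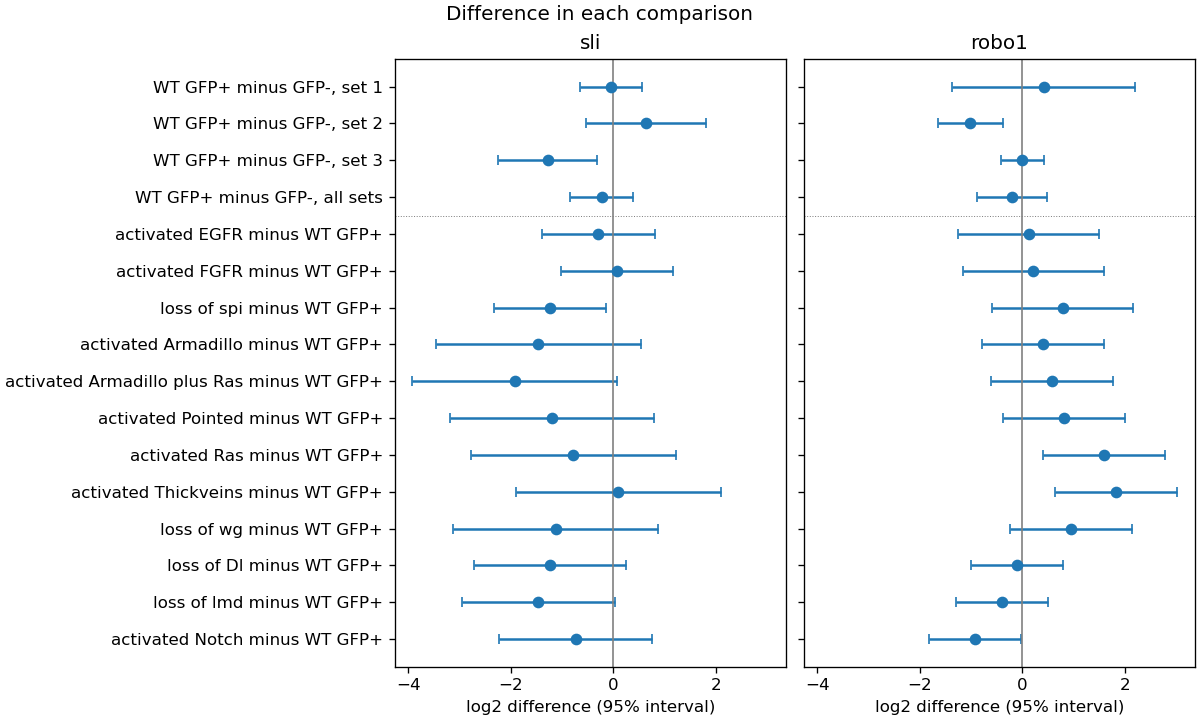
Log2 difference of sli (left) and robo1 (right) in each comparison, with the limma 95% interval as a bar (horizontal axis). The rows give wild type GFP positive minus GFP negative cells by set and over all sets, then each genotype minus wild type GFP positive cells of its set. Intervals that leave out 0 belong to comparisons whose adjusted p still missed 0.05, such as activated Thickveins for robo1 (0.0508) and the spi mutant for sli (0.233).

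The genes whose group means followed each member most closely were taken by correlation over the 18 group means, each set centred on its own mean, among 10461 probe sets that varied enough to compare. For sli these were boi (r = 0.82), Tsp (r = 0.82) and Mhcl (r = 0.80). For robo1 they were CG44085 (r = 0.82), Ncoa6 (r = 0.80) and dlg1 (r = 0.79). They are the highest of many correlations and come with no test. Tsp, a thrombospondin of the matrix, is on the tendon cell list through a second and brighter probe set.

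Several other genes of the pathway passed the test where sli and robo1 did not. Of 20 pathway genes listed, 15 were measured. In wild type GFP positive cells 5 were lower than in GFP negative cells and none was higher. Of all probe sets 16.7% were called, in either direction. The median log2 difference of the list was -0.22, against 0.003 over all probe sets. Among regulators at the cell surface, comm2, a relative of the Robo-sorting protein comm, was lower by -0.37 ± 0.09 (adjusted p = 0.00652), and comm itself was at -0.28 (adjusted p = 0.136). Sdc, the syndecan that acts as a co-receptor for Slit, was lower by -0.48 ± 0.14 (adjusted p = 0.0257). RhoGAP93B, a Rac-inactivating protein that binds Robo, was lower by -0.47 ± 0.11 (adjusted p = 0.006). The receptor tyrosine phosphatases of axon guidance, Lar and Ptp69D, were lower by -0.84 ± 0.23 (adjusted p = 0.0159) and -0.63 ± 0.20 (adjusted p = 0.0315).

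Fitted alone, set 2 was the only set that called any of them. It called comm2 (-0.69, adjusted p = 0.00649), Sdc (-1.22, adjusted p = 0.00219) and Ptp69D (-1.65, adjusted p = 0.00278). In set 2 Ptp69D was at 5.55, 5.05 and 4.85 in GFP positive cells, against 6.92, 6.75 and 6.72 in GFP negative cells. In set 1 it was at 6.20, 6.10 and 6.50 in GFP positive cells, against 6.36, 6.30 and 6.32 in GFP negative cells, where the fractions overlapped. Without the 6 arrays lettered A none of the 5 was called (adjusted p from 0.0667 for RhoGAP93B to 0.135 for comm2). The Ptp69D call was lost without any 1 of the 6 set 2 arrays (adjusted p up to 0.0672, without GFP positive 2B). The Sdc call was lost without GFP negative 2C (0.0532) or without GFP positive 2A (0.051), 2B (0.0532) or 2C (0.056).

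**Figure D4:**
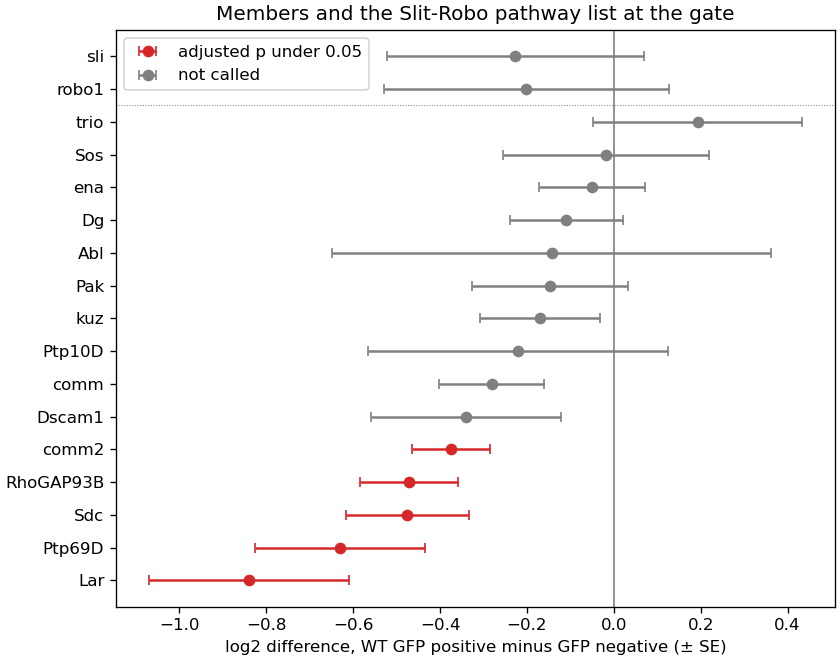
Log2 difference, wild type GFP positive minus GFP negative, over the 3 sets (horizontal axis, with the SE as a bar) for sli and robo1 at the top and, under the dotted line, the 15 measured pathway genes. Red marks an adjusted p under 0.05. The red genes, from comm2 at -0.37 to Lar at -0.84, all lie to the left of 0, and sli and robo1 are grey.

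In the genotypes the pathway genes were called mostly upward. The shares of all probe sets called that stand beside these counts cover both directions. With activated EGFR 2 of 15 rose (2.74% of all probe sets called), and the list median was 0.02 (all probe sets 0.007). With activated FGFR 2 rose as well (2.21% called, median 0.14, all probe sets 0.01). Both times they were comm2 and Dg, which encodes dystroglycan, a matrix receptor that binds Slit in mice. For comm2 the values were 7.78, 7.82 and 7.69 in activated EGFR cells and 7.56, 7.53 and 7.51 in activated FGFR cells, against 6.77, 7.24 and 7.11 in wild type GFP positive cells. Both genotypes lay above wild type on every array, by 0.72 ± 0.11 (adjusted p = 0.00199) and 0.49 ± 0.11 (adjusted p = 0.0298). Dg rose by 0.57 ± 0.13 with activated EGFR (adjusted p = 0.0354) and by 0.77 ± 0.13 with activated FGFR (adjusted p = 0.00601). The weaker call of each pair was near the threshold and was lost without some of the arrays, though its difference kept its direction. With 1 array left out, comm2 with activated FGFR ran from 0.36 to 0.59 and Dg with activated EGFR from 0.49 to 0.68. Dg with activated EGFR was lost without EGFR 1B (0.122) or 1C (0.117) or wild type 1A (0.112) or 1C (0.115). The comm2 call with activated FGFR was lost without FGFR 1A (0.0891), 1B (0.0992) or 1C (0.0815) or wild type 1A (0.085) or 1C (0.0624). No pathway gene was called in the spi mutant.

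In set 2, where wild type GFP positive cells had the lowest mean of all groups for Ptp69D and kuz as for robo1, 5 pathway genes rose with activated Thickveins (8.38% of all probe sets called, median 1.02, all probe sets -0.018). In the wg mutant 4 of 15 rose and 1 fell, where 26.6% of all probe sets were called (median 0.79, all probe sets 0.021). Ptp69D was at 6.11, 6.03 and 6.36 in activated Thickveins cells and 7.19, 7.40 and 7.30 in wg mutant cells, against 5.55, 5.05 and 4.85 in wild type GFP positive cells. Its rise was 1.02 ± 0.19 with activated Thickveins (adjusted p = 0.00112), 2.14 ± 0.19 in the wg mutant (adjusted p = 1.06e-08), 1.37 with activated Ras (adjusted p = 8.01e-05) and 1.00 with activated Pointed (adjusted p = 0.000998), where it was the 1 gene called. These comparisons share their wild type arrays. The metalloprotease kuz, which cleaves Robo, was at 7.25, 6.99 and 6.68 in wg mutant cells, against 5.55, 5.25 and 5.17 in wild type GFP positive cells, a rise of 1.65 ± 0.25 (adjusted p = 1.84e-05). Dg rose in the wg mutant (1.04, adjusted p = 0.000207), with activated Thickveins (1.10, adjusted p = 0.000589), with Armadillo plus Ras (1.00, adjusted p = 0.00396) and with activated Ras (0.81, adjusted p = 0.0134).

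The gene comm, whose protein keeps Robo off the growth cone surface, fell in the wg mutant. It was at 6.01, 4.99 and 4.86 in wg mutant cells, against 6.85, 7.33 and 7.29 in wild type GFP positive cells, a change of -1.87 ± 0.41 (adjusted p = 0.00119). With activated Armadillo, the effector of Wg, comm had 4.63, 6.90 and 5.66, a change of -1.43 ± 0.41 in the same direction (adjusted p = 0.036) and the 1 call of that genotype (6.92% of all probe sets called, list median -0.08, all probe sets 0.005). The Armadillo call was lost without Armadillo array 2A (-0.88, adjusted p = 0.185) or 2C (0.0971) or wild type 2A (0.0568), 2B (0.112) or 2C (0.108). The wg mutant stood apart in the eIF-4a control, at 3.29 to 3.59, against 2.01 to 2.24 in wild type GFP positive cells. With that as a covariate the wg mutant calls of kuz and Dg were lost although the differences were larger (2.61, adjusted p = 0.0567, and 1.91, adjusted p = 0.0656). The covariate could hardly be told apart from the wg mutant, so these values do not decide its calls. With activated Thickveins the calls of Ptp69D (0.75, adjusted p = 0.0706), kuz (0.66, adjusted p = 0.328) and Ptp10D (1.83, adjusted p = 0.249) were lost too, with differences smaller than without the covariate but in the same direction.

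Further calls of set 2 were lost when some single arrays were left out, which also makes a group smaller. None of these differences changed direction. With activated Thickveins, kuz rose by 0.90 (adjusted p = 0.0235), lost without Tkv 2A (0.0708) or 2C (0.0914) or wild type 2B (0.0881) or 2C (0.106). The phosphatase gene Ptp10D rose by 2.14 (adjusted p = 0.0274), from values of 1.94, 4.21 and 4.55 in activated Thickveins cells, against 1.21, 1.70 and 1.38 in wild type GFP positive cells. Its call was lost without Tkv 2B (0.12) or 2C (0.167) or wild type 2A (0.0776), 2B (0.0611) or 2C (0.0911). The Ptp10D probe set was too dim to enter the fit on brighter probe sets in this comparison. With Armadillo plus Ras 2 genes rose (2.42% of all probe sets called, median 0.49, all probe sets -0.006), Dg and kuz, and kuz at 1.12 (adjusted p = 0.0127) was lost without Armadillo plus Ras 2A (0.104) or wild type 2B (0.0568) or 2C (0.0694). With activated Ras 3 rose (4.59% of all probe sets called, median 0.51, all probe sets -0.004), and the third was comm2 at 0.65 (adjusted p = 0.0167), lost without Ras 2A (0.0795) or 2C (0.0941) or wild type 2A (0.0588) or 2C (0.0657). The activated Ras call of Dg was lost without Ras 2A (0.0548) or 2C (0.0587) or wild type 2B (0.0846) or 2C (0.0598). The list median with activated Pointed was -0.31, against -0.002 over all probe sets.

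No pathway gene was called in the Dl mutant, the lmd mutant or activated Notch cells against wild type, with list medians of 0.24, 0.18 and -0.20 (all probe sets 0.003, 0 and 0.003). Between the age-matched genotypes, 3 genes were lower with activated Notch than in the Dl mutant (5.36% of all probe sets called, list median -0.48, all probe sets 0.007). Dg had 5.86, 6.37 and 6.40 in activated Notch cells, against 7.11, 7.48 and 7.72 in Dl mutant cells, without overlap (-1.23 ± 0.17, adjusted p = 0.000357). RhoGAP93B was at -1.09 (adjusted p = 0.0186), lost without Dl 3B (0.0928) or Notch 3A (0.0676). Ptp69D was at -0.56 (adjusted p = 0.0494), lost without any 1 of the 6 arrays (up to 0.164, without Notch 3C). In the lmd mutant against activated Notch 2 genes were higher (3.61% of all probe sets called, list median 0.39, all probe sets -0.016): comm by 0.70 (adjusted p = 0.0077) and Dg by 0.73 (adjusted p = 0.0256). The Dg call was lost without any 1 of the lmd arrays (0.0509 to 0.0791) or Notch 3A (0.0922). None was called between the lmd and Dl mutants (list median 0.03, all probe sets -0.008).

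Other guidance systems were read at the sort for comparison. Of 14 listed genes 9 were measured, of which 1 was higher and 5 were lower in GFP positive cells (16.7% of all probe sets called, median -0.48). NetB, a secreted Netrin, was higher by 1.35 ± 0.16 (adjusted p = 7.82e-06). The Netrin receptor genes fra (-0.57, adjusted p = 0.00748) and unc-5 (-0.60, adjusted p = 0.00538) and the Wnt5 receptor gene drl (-0.48, adjusted p = 9.72e-05) were lower. The dimmer probe sets of unc-5 gave -0.39 (adjusted p = 0.0314) and -0.33 (adjusted p = 0.658). Of 5 transcription factors known to act upstream of sli or robo genes, 4 were measured and exex, a motor neuron factor, was called higher (0.66, adjusted p = 0.0428), a call lost without any 1 of 13 of the 18 arrays (up to 0.088, without GFP positive 2C). Of 9 heart and dorsal mesoderm genes 8 were measured: Hand, a factor of heart and visceral muscle, was higher by 2.46 (adjusted p = 0.00282), and Doc1 (-0.45, adjusted p = 0.00462) and pnr (-0.48, adjusted p = 0.0171) were lower.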

How the data were processed

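The files hold 1 table of the whole series, 54 arrays of an Affymetrix fly design with 14010 probe sets, with 44 controls among them that were not tested. The values were taken as log2 expression levels from the deposited table: they run from -3.08 to 13.6, and this range is the ground for base 2. Per the submitters' processing notes, the authors used affy; the version, background correction, normalization and summary method are not given in the sources used here. Of the probe sets tested, 12443 had 1 gene symbol, 327 several and 1196 none, and only those with 1 were named. There were 10 missing values, none in sli or robo1. Depth has no meaning for arrays; the number of arrays limits the precision.

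Samples were grouped by their labels. Each probe set was tested with limma 3.58.1 in R 4.3.3 (lmFit, eBayes with a variance trend, two-sided), with Benjamini-Hochberg adjustment over all 13966 probe sets and a threshold of 0.05. Genotype fits used all arrays of the set with 1 mean per group. The sort was fitted on the 18 wild type arrays with set as a block. Intervals are 95% intervals of limma. The procedure was tested on simulated data. Figures were drawn with matplotlib 3.10.9 in Python 3.11.15.

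By the rule used, the replicate letters A, B and C did not pair the arrays: in 0 of 15 comparisons did every same-lettered pair correlate above 0.1 (r from -0.03 to 0.14). Pairs lettered A were all positive (0.02 to 0.14). The pairs above 0.1 were all lettered A, and those lettered B or C reached 0.09. The members and gene lists were chosen with earlier results of these data known. Of the pathway list, every gene called at the sort and up to 4 called per genotype with the smallest adjusted p are named; of the other lists, up to 4 called at the sort; of genes with a like pattern, the 3 with the highest r among those whose centred group means have an SD of at least 0.25. Where a listed gene had several probe sets, the one with the highest mean stands for it. Alternatives tried were no variance trend, quantile normalization, centring on array medians, the replicate block, brighter probe sets only, the eIF-4a covariate, only the groups compared, leaving out the letter A and leaving out each array.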

Additional observations from a re-analysis of the deposited data

How the results depend on the processing

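The number of arrays and the spread between them limit these results: the 95% interval of sli with activated Armadillo plus Ras ran from -3.92 to 0.08, and its probe set was too dim to enter most fits on brighter probe sets. Neither sli nor robo1 was called at the sort under any alternative. Over the 12 genotypes the members had 0 calls, and 1 call under each of 3 settings. These were robo1 with activated Thickveins at 1.83 over brighter probe sets (adjusted p = 0.0254) and with only the groups compared (adjusted p = 0.0139), and robo1 with activated Notch at -1.54 with the eIF-4a difference as a covariate (adjusted p = 0.0267). The eIF-4a ranges of activated Notch and wild type GFP positive arrays did not overlap, so that covariate fit cannot fully separate covariate and genotype. Of the other entries for the members, 223 under a setting and 265 with 1 array left out were unchanged. These entries include counts of calls and F tests between sets as well as differences. An unchanged difference kept its direction and side of the threshold. An unchanged count stayed at 0, and an unchanged F test kept its side of the threshold.

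Directions turned as follows, none of them called. With set 1 on its own, robo1 differed by 0.42 at the sort, and with set 2 on its own sli differed by 0.64. Without the arrays lettered A, sli differed by 0.10 at the sort and by -0.42 with activated Thickveins, and robo1 by 0.052 in the Dl mutant. With 1 array left out, robo1 ran from -0.45 to 0.50 with activated EGFR, from -0.36 to 0.61 with activated FGFR and from -0.26 to 0.21 in the Dl mutant. For sli it ran from -0.02 to 0.19 with activated FGFR, from -1.34 to 0.17 with activated Ras and from -0.23 to 0.41 with activated Thickveins. Between age-matched genotypes sli ran from -0.14 to 1.12 (activated Notch minus the Dl mutant) and from -0.63 to 0.30 (lmd mutant minus Dl mutant), and robo1 from -0.10 to 0.87 (lmd mutant minus activated Notch). The cause was not tested.

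With the replicate letter as a block (replicate block), sli at the sort differed by -0.23 ± 0.33 (adjusted p = 0.746) and robo1 by -0.20 ± 0.36 (adjusted p = 0.801), and no call of either gene changed. Not every call of a listed gene was refitted. At the sort these were every called pathway gene and, from each other list, up to 4 called genes with the smallest adjusted p. In the genotypes and age-matched pairs they were up to 4 called pathway genes per comparison. The block ended the sort calls of Sdc (adjusted p = 0.0782), Ptp69D (0.095) and exex (0.0876), and no other refitted call. Of the 26 refitted sort calls, 11 were lost with set 1 on its own, 13 with set 2, 16 with set 3, 7 without the letter A, 3 with no variance trend and 3 with the block. Of the 24 refitted in the genotypes and age-matched pairs, 11 were lost with only the groups compared, 7 with no variance trend, 7 with the eIF-4a covariate, 6 without the letter A and 1 with quantile normalization.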
